A study of Homo sapiens with 6 samples.

Results

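Hepatocyte lineage transcription factors are the DNA-binding proteins that set up and keep the liver cell program, and 8 of them were followed here in Hep-G2 cells depleted of calmegin. They were chosen by name from the deposited gene table, which holds 58735 genes, and comprise HNF4A, HNF4G, FOXA1, FOXA2, FOXA3, ONECUT1, PROX1 and CEBPA. RNA was sequenced from 3 control libraries (sh-NC, genotype WT, treatment shcontrol) and 3 knockdown libraries (sh-CLGN, genotype CLGN knock down, treatment shCLGN), and all 6 carry the same batch label. Hep-G2 is an established line from a human liver tumor. The hairpins were delivered by lentivirus with puromycin selection and each group held 1 hairpin, so that loss of CLGN cannot be told apart from other effects of the hairpin or of the culture. All 8 factors passed the expression filter of at least 1 FPKM (fragments per kilobase of gene, scaled to library size) in at least 3 libraries and were among the 13074 genes tested.

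The lineage factors work as a network rather than as a chain. FOXA proteins are pioneer factors that open liver enhancers, the nuclear receptor HNF4A then drives most genes of the mature hepatocyte, and CEBPA, a leucine zipper protein, supports metabolic genes and restrains division. ONECUT1 (also known as HNF6) and PROX1 are homeobox proteins of the early liver bud, and several of these factors bind each other's promoters.

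The recovered reads numbered 14955816 to 16244639 per library, and the ranges of the groups overlapped. Other library measures separated the groups. Mitochondrial genes took 3.25% to 4.02% of reads in sh-NC libraries and 5.49% to 5.80% in sh-CLGN libraries, and 23578 to 23793 genes had a read in the former against 26814 to 27006 in the latter. CLGN was at 21.0 to 26.1 FPKM in sh-NC and 8.60 to 9.48 FPKM in sh-CLGN, which left 37.8% of the control mean. Over the tested genes, which do not count as replicates, Pearson correlations were 0.988 to 0.992 within groups and 0.937 to 0.945 between them. The liver identity of the cells was visible in the markers. All 10 hepatocyte markers were tested, and their summed level was 6174 to 6337 FPKM in sh-NC and 4735 to 4947 FPKM in sh-CLGN. The list was split, with 6 lower, 3 higher (TTR, FGB and AHSG) and APOA1 not called, and the lower sum came mostly from ALB and AMBP. For these and the marker counts that follow, 39.0% of all tested genes were lower and 26.7% higher. Of the 10 fibroblast and stellate cell markers, 6 were tested and all 6 were higher. COL1A1, COL3A1, TAGLN and LUM were below 1 FPKM in every sh-NC library. They passed the filter through sh-CLGN alone and could not have been called lower, so the count of 6 is partly set by the filter. The list summed to 7.65 to 9.20 FPKM in sh-NC and 64.8 to 66.9 FPKM in sh-CLGN, mostly from COL1A2. Within the same list, TAGLN went from 0.495 to 16.4 FPKM and COL1A1 from 0.327 to 3.29 FPKM, while DCN and THY1 stayed at no more than 3 reads in every library. Bile duct markers, led by SOX9, summed to 153 to 159 FPKM in sh-NC and 113 to 120 FPKM in sh-CLGN, with KRT7 at no more than 3 reads. That list was split too, as SOX9 and EPCAM were lower while KRT19 (37.3 to 56.9 FPKM) and SPP1 (1.58 to 5.29 FPKM) were higher, and the lower sum came from SOX9. The part of these library and marker shifts in the results was not tested. Endothelial markers summed to at most 3.74 FPKM and blood cell markers to at most 1.53 FPKM in any library. In such bulk samples, fewer cells of a type and less RNA per cell cannot be told apart.

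Of the 8 lineage factors, 6 were lower in sh-CLGN and 0 were higher at a limma adjusted p of at most 0.05, and ONECUT1 and PROX1 did not pass. FOXA2 and CEBPA fell the most, FOXA3, HNF4G and FOXA1 fell less, and HNF4A fell the least. The background was high, because 39.0% of all tested genes were called lower and 26.7% higher. Of the 888 tested genes that the deposited table assigns to a transcription factor family, 40.3% were lower and 28.7% higher. The median log2 change was -0.43 for the 8 factors, against -0.08 for all tested genes and -0.06 for those 888. The groups did not overlap in 6 of the 8, all lower, where 41.5% of tested genes showed that pattern downward and 28.7% upward. None of the 8 also reached an absolute log2 change of 1, which 3.19% of tested genes did downward and 3.09% upward. These counts describe a list of known genes and carry no test of the list as such.

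**Figure D1:**
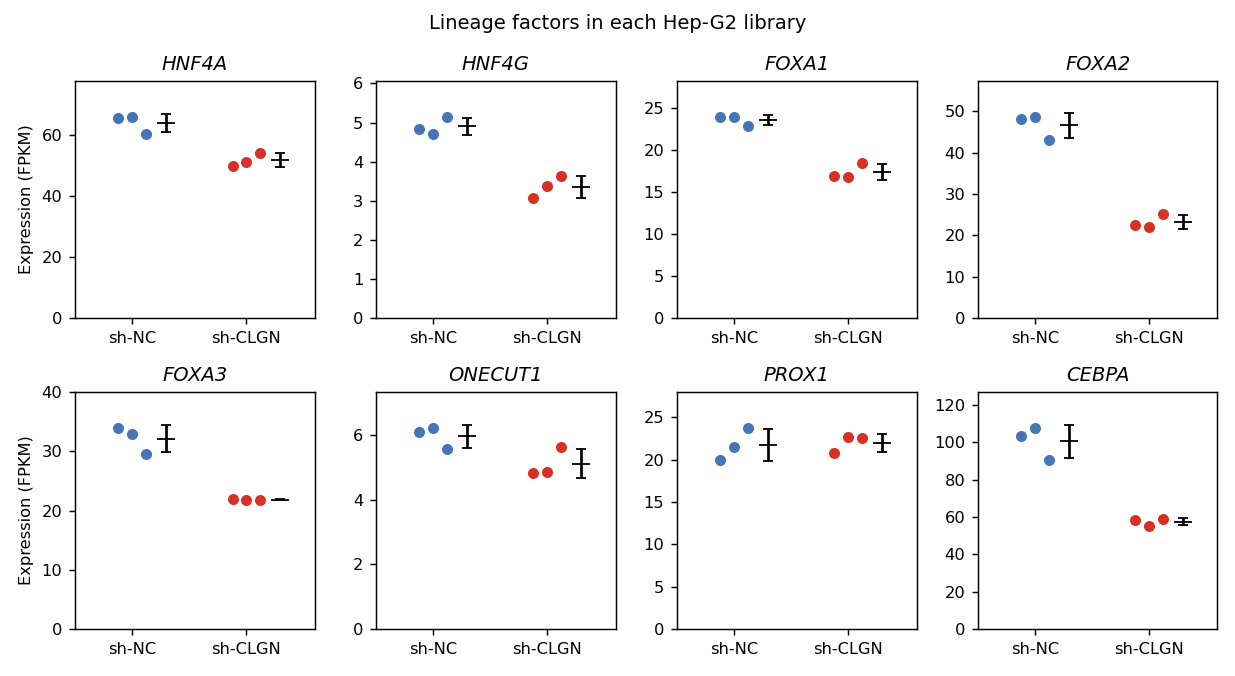
Expression of the 8 lineage factors in FPKM (vertical axes, each from 0) in sh-NC (blue) and sh-CLGN (red). Points are libraries, and black bars give the mean and SD of 3. FOXA2, CEBPA, FOXA3, FOXA1, HNF4G and HNF4A have no overlap between groups, while ONECUT1 and PROX1 overlap.

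FOXA2 (ENSG00000125798; chromosome 20, 22581005 to 22585455, minus strand, GRCh38) is the FOXA protein most tied to endoderm formation. Replicates 1, 2 and 3 of sh-NC had 48.1, 48.5 and 43.0 FPKM, and the same replicates of sh-CLGN had 22.6, 22.1 and 25.1 FPKM. The lowest control library thus lay well above the highest knockdown library. The mean went from 46.6 ± 3.10 to 23.2 ± 1.59 FPKM (SD, n = 3), or 49.9% of control. Taken as log2(FPKM + 1), FOXA2 changed by -0.97 (SE 0.069, 95% interval -1.13 to -0.81, limma adjusted p = 1.46e-05). Ordered by log2 change, FOXA2 ranked 35 from the lowest among the 888 factor genes.

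FOXA3 (ENSG00000170608; chromosome 19, 45863989 to 45873797, plus strand), the FOXA protein that prevails in the adult liver, was at 34.0, 33.0 and 29.5 FPKM in sh-NC and 21.9, 21.8 and 21.7 FPKM in sh-CLGN. Its knockdown libraries were nearly equal, and its mean of 32.2 ± 2.33 FPKM fell to 21.8 ± 0.111 FPKM. The log2 change was -0.54 with an SE of 0.060 (limma adjusted p = 0.000129). FOXA1 (ENSG00000129514; chromosome 14, 37589984 to 37596059, minus strand), which shares many binding sites with FOXA2, was at 23.9, 23.9 and 22.9 FPKM in sh-NC and 17.0, 16.8 and 18.4 FPKM in sh-CLGN. It kept 73.8% of its control mean, with a log2 change of -0.42 (SE 0.053, limma adjusted p = 0.000270). All 3 FOXA genes were therefore lower without overlap, and the sum of their FPKM fell from 102 ± 5.98 to 62.4 ± 2.42, or 61.1% of control.

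The make-up of the FOXA sum differed as well, a comparison made within each library, which library scaling does not touch. GC content does differ among the FOXA genes, at 51.3% for FOXA1, 58.2% for FOXA2 and 60.8% for FOXA3, and the shares were not corrected for it. FOXA2 held 45.4%, 46.1% and 45.1% of the sum in sh-NC, against 36.7%, 36.4% and 38.4% in sh-CLGN, a difference of -8.31 percentage points. FOXA1 held 22.5% to 24.0% in sh-NC, against 27.6% to 28.2% in sh-CLGN. FOXA3 held 31.0% to 32.0% in sh-NC, against 33.3% to 35.9% in sh-CLGN. None of these shares overlapped between groups. The two-sided exact permutation test gave p = 0.1 for each, the smallest value that 3 against 3 libraries allow, so it cannot pass 0.05 in this design. Per unit length, FOXA2 was the most expressed FOXA gene in both groups, though in sh-CLGN it was at 23.2 FPKM beside 21.8 FPKM for FOXA3. In reads, FOXA2 was above FOXA1 in sh-NC, at no less than 1731 against no more than 1408. It was below FOXA1 in sh-CLGN, at 943 to 1053 reads against 1094 to 1184.

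**Figure D2:**
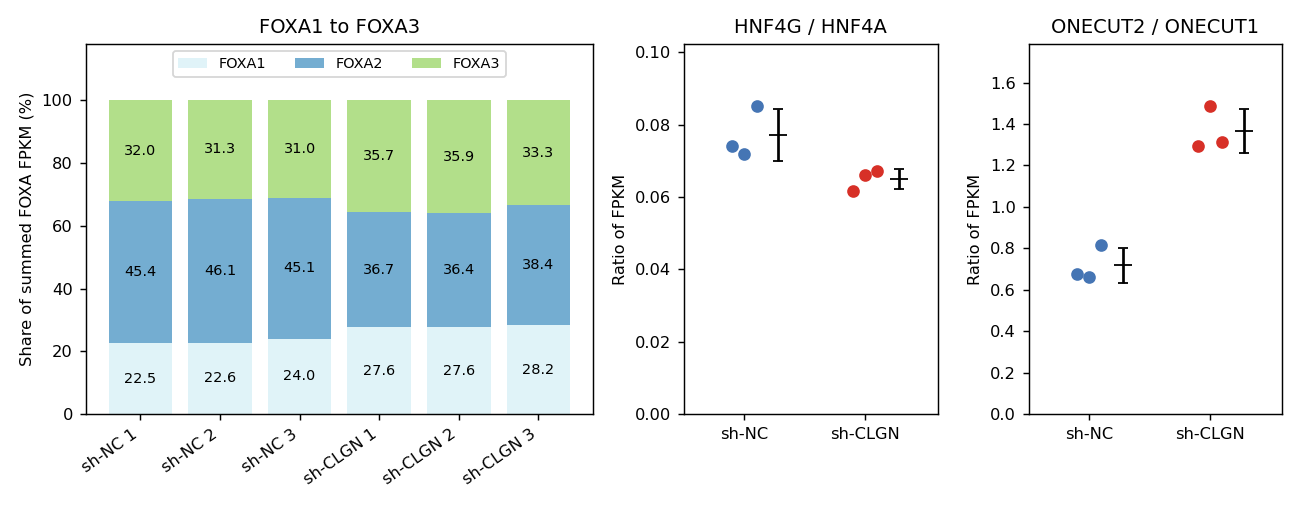
Composition of gene families within each library. Left, the share of the summed FOXA FPKM held by FOXA1, FOXA2 and FOXA3, in percent. Middle and right, the ratio of FPKM of HNF4G to HNF4A and of ONECUT2 to ONECUT1, with points as libraries and bars as mean and SD of 3. The FOXA2 share sits at 45.1% to 46.1% in sh-NC and at 36.4% to 38.4% in sh-CLGN, and the ONECUT ratio lies below 1 in every sh-NC library and above 1 in every sh-CLGN library.

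CEBPA (ENSG00000245848; chromosome 19, 33299934 to 33302564, minus strand) was the most expressed of the 8 per unit length and ranked 12 from the highest among the 888 factor genes in sh-NC. Its values were 104, 108 and 90.6 FPKM in sh-NC and 58.3, 55.3 and 58.9 FPKM in sh-CLGN. The mean went from 100.6 ± 8.95 to 57.5 ± 1.92 FPKM, or 57.1% of control (log2 change -0.79, SE 0.070, limma adjusted p = 4.00e-05). Its relatives moved the same way. CEBPB, which acts in the acute phase response, fell from 80.8 ± 10.5 to 47.3 ± 1.67 FPKM (log2 change -0.75, limma adjusted p = 0.000202). CEBPD, induced by the same signals, fell from 56.9 ± 6.51 to 27.3 ± 1.15 FPKM (-1.03, limma adjusted p = 2.61e-05). CEBPG, a partner without an activation domain, fell from 58.3 ± 2.19 to 38.1 ± 1.45 FPKM (-0.60, limma adjusted p = 3.34e-05). These 4 are all the tested genes that the table places in the C/EBP family, where 40.3% of all tested factor genes were lower. After GC correction the log2 change was -0.43 for CEBPB, -0.67 for CEBPD and -0.60 for CEBPG. Scaled by read totals it was -0.56, -0.84 and -0.41, so CEBPD passed an absolute change of 1 in neither.

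HNF4A (ENSG00000101076; chromosome 20, 44355700 to 44434596, plus strand) was at 65.4, 65.7 and 60.3 FPKM in sh-NC and 49.9, 51.2 and 54.2 FPKM in sh-CLGN. The libraries of the groups stood closer than for FOXA2 but did not overlap. The mean went from 63.8 ± 3.05 to 51.7 ± 2.19 FPKM, or 81.1% of control, with a log2 change of -0.30 (SE 0.055, 95% interval -0.42 to -0.17, limma adjusted p = 0.00185). The call rested on the scaling. With libraries scaled by their read totals the change was -0.10 (adjusted p = 0.104), and with quantile normalization it was -0.013 (adjusted p = 0.830). Scaling by read totals raised the median of all tested genes by 0.16. Relative to the median of all tested genes, HNF4A stood at -0.22 as deposited, at -0.19 under that scaling, at -0.096 after GC correction and at 0.0030 with quantile normalization.

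HNF4A has annotated starts at an upstream and a downstream promoter, whose transcripts give proteins with different ends. The deposited value joins all transcripts of the gene and cannot tell the starts apart. The RefSeq windows of both, from 250 bases before to 50 bases after the start on the plus strand of GRCh38.p14, are printed to show where they hold the letters of another of the 8 factors. The upstream window is chr20:44355449-44355748 and the downstream one chr20:44400989-44401288. Capitals mark ATTGAT, the core letters bound by ONECUT proteins, on either strand.
HNF4A upstream: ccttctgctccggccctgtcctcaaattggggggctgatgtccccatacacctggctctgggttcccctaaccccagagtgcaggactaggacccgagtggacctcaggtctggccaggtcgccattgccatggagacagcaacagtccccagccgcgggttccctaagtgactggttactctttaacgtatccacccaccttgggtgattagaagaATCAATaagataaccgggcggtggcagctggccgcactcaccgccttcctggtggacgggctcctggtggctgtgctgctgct
HNF4A downstream: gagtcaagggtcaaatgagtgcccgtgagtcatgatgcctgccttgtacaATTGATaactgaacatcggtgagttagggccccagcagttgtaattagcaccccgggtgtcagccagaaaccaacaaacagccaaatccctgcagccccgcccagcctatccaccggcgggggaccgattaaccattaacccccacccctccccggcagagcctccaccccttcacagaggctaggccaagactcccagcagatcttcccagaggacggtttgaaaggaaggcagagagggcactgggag
The upstream window held 1 ONECUT match on the minus strand, at -33 bases from the start. The downstream window held 1 ONECUT match on the plus strand, at -200 bases. Of 35116 RefSeq promoter windows of that length, 6.26% held the ONECUT letters. The 5 lineage factors with a window had 6 windows, and only the 2 of HNF4A held them. A match is a description of the letters and not a measured site.

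HNF4G (ENSG00000164749; chromosome 8, 75407914 to 75566843, plus strand) is the second HNF4 receptor, best known from the gut. It was the least expressed of the 8, at 4.85, 4.72 and 5.14 FPKM in sh-NC and 3.08, 3.38 and 3.63 FPKM in sh-CLGN, from 251 to 382 reads per library. The groups did not overlap, and the log2 change was -0.44 (SE 0.071, limma adjusted p = 0.000907). Its ratio to HNF4A was 0.0742, 0.0718 and 0.0852 in sh-NC, against 0.0617, 0.0660 and 0.0671 in sh-CLGN. The ratios did not overlap either, at the smallest p of 0.1 that the two-sided exact permutation test allows. The difference in the ratio was -0.0121, and -0.0081 without sh-NC replicate 3. The ratio was not corrected for GC content, which is 35.9% in HNF4G and 52.8% in HNF4A. Unlike for the GC-rich factors, correction for GC content enlarged the fall of HNF4G, to -0.68.

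ONECUT1 (ENSG00000169856; chromosome 15, 52756989 to 52791078, minus strand) was at 6.09, 6.23 and 5.57 FPKM in sh-NC and 4.84, 4.86 and 5.63 FPKM in sh-CLGN. Replicate 3 of sh-CLGN lay above replicate 3 of sh-NC, so the groups overlapped. The log2 change of -0.19 (SE 0.073, 95% interval -0.36 to -0.02, limma adjusted p = 0.0506) did not pass the adjusted threshold. It passed at -0.23 without sh-NC replicate 3 (adjusted p = 0.0296) and at -0.25 without sh-CLGN replicate 3 (adjusted p = 0.0228), and turned to 0.052 after GC correction (adjusted p = 0.409). It was -0.024 when scaled by read totals (adjusted p = 0.777) and -0.092 when each library was rescaled to the same FPKM sum (TPM; adjusted p = 0.365).

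Its paralog ONECUT2 was higher in sh-CLGN. ONECUT2 was at 4.12, 4.13 and 4.55 FPKM in sh-NC and 6.26, 7.24 and 7.39 FPKM in sh-CLGN, a log2 change of 0.60 (SE 0.075, limma adjusted p = 0.000247). The ratio of ONECUT2 to ONECUT1, looked at after their values were seen, was 0.677, 0.663 and 0.816 in sh-NC, against 1.29, 1.49 and 1.31 in sh-CLGN. Per unit of annotated gene length, ONECUT1 was the higher of the pair in each control library and ONECUT2 in each knockdown library (two-sided exact permutation p = 0.1, the smallest possible). The crossing rests on the lengths of 3850 bases for ONECUT1 and 16234 for ONECUT2, since in reads ONECUT2 was the higher in every library, with at least 933 against at most 350. The ratio was not corrected for GC content, which is 58.1% in ONECUT1 and 41.5% in ONECUT2. After GC correction the log2 change of ONECUT2 was 0.52 (limma adjusted p = 0.000313). ONECUT3 had 0 to 2 reads per library and was not tested.

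PROX1 (ENSG00000117707; chromosome 1, 213983181 to 214041502, plus strand), a factor of liver growth and of lymphatic vessels, was at 20.0, 21.5 and 23.8 FPKM in sh-NC and 20.8, 22.7 and 22.6 FPKM in sh-CLGN. The groups overlapped over most of their range. The log2 change was 0.02 (SE 0.071, 95% interval -0.14 to 0.18, limma adjusted p = 0.819), an interval that leaves room for a change of up to 0.18 upward or 0.14 downward. The value moved with the scaling. It reached the threshold as higher when libraries were scaled by read totals (0.21, adjusted p = 0.0396) or quantile normalized (0.27, adjusted p = 0.0171), and was -0.074 after GC correction (adjusted p = 0.264). Of all tested genes, 37.9% were called higher under read totals and 30.2% with quantile normalization. Relative to the median of all tested genes, PROX1 stood at 0.096 as deposited, 0.12 under read totals, 0.28 with quantile normalization and -0.071 after GC correction.

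The order of the 8 factors by FPKM, a level per unit length, was CEBPA, HNF4A, FOXA2, FOXA3, FOXA1, PROX1, ONECUT1 and HNF4G in sh-NC. FOXA1 and PROX1 overlapped there, and the other neighbours did not. In sh-CLGN the order was CEBPA, HNF4A, FOXA2, PROX1, FOXA3, FOXA1, ONECUT1 and HNF4G. There FOXA2 overlapped with PROX1 and PROX1 with FOXA3, whereas FOXA2, at 22.1 FPKM or more, stayed just above the highest FOXA3 library at 21.9 FPKM. The ratio of mean FPKM between CEBPA and HNF4A was 1.58 in sh-NC, against 1.11 in sh-CLGN.

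The GC content of the transcripts moved with these values. Over 13068 tested genes the log2 change had a Spearman's rho of -0.32 with GC content. Of the 8 factors, 6 lie above the median GC content of tested genes of 48.1%, from 51.3% in FOXA1 to 65.9% in CEBPA, and HNF4G at 35.9% and PROX1 at 40.7% lie below it. Replicate 3 of sh-NC, whose deviation from the other control libraries had a rho of -0.64 with GC content, was the lowest control library for those 6 and the highest for HNF4G and PROX1. Once the GC trend of every library was taken out, the 6 factors called lower remained so, at log2 changes of -0.73 for FOXA2, -0.48 for CEBPA, -0.28 for FOXA3, -0.24 for FOXA1, -0.68 for HNF4G and -0.10 for HNF4A. HNF4A only just kept its call there (limma adjusted p = 0.0487). Without sh-NC replicate 3 the log2 change was -1.03 for FOXA2 and -0.87 for CEBPA.

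**Figure D3:**
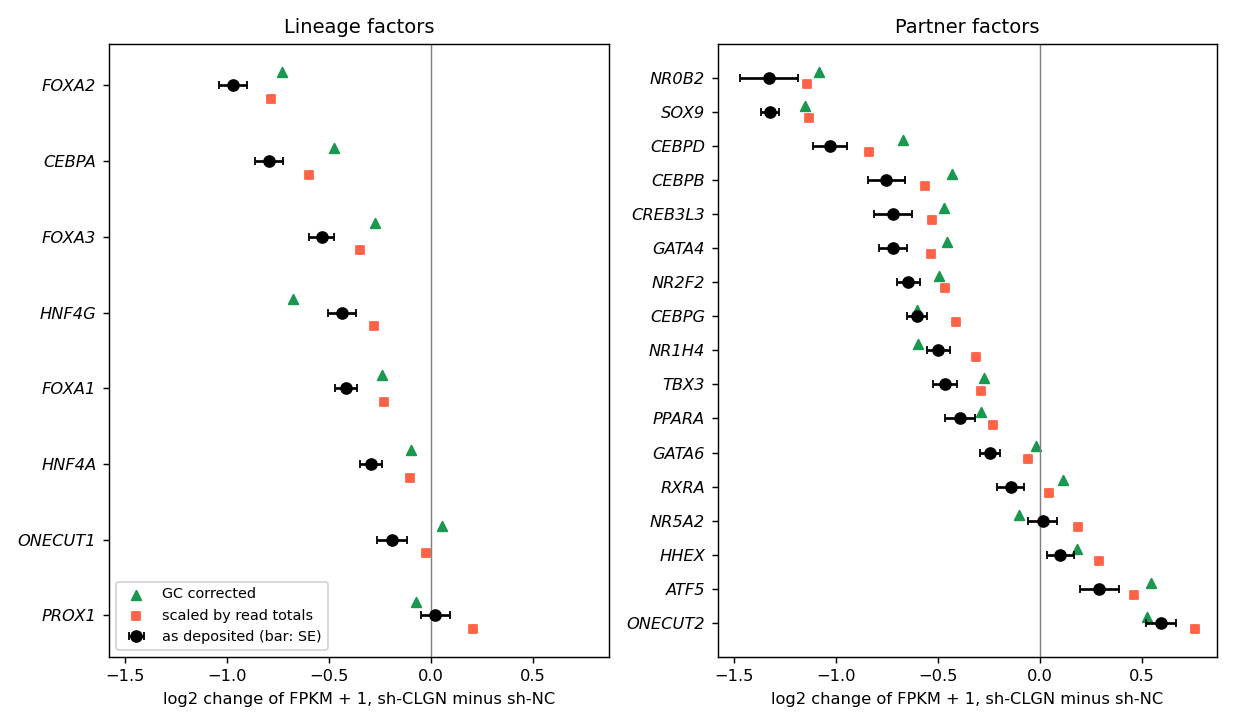
Log2 change of FPKM + 1, sh-CLGN minus sh-NC (horizontal axes), for the 8 lineage factors and 17 of the 19 tested partner factors. Black points with SE bars are the values as deposited, triangles the values after GC correction and squares those scaled by read totals. FOXA2, CEBPA, FOXA3, HNF4G, FOXA1 and HNF4A stay left of 0 in all 3, while ONECUT1 and PROX1 cross it.

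The partner factors are a list of 20 other liver-enriched regulators and paralogs. Of the 19 that passed the filter, 14 were lower, 2 were higher and 3 did not pass, against the background of 39.0% and 26.7%. Their median log2 change was -0.50. SOX9, a factor of bile duct and progenitor cells, fell from 93.8 ± 2.07 to 36.9 ± 0.618 FPKM (-1.32, limma adjusted p = 1.00e-06). NR0B2 (SHP), the repressor that FXR induces to shut down bile acid synthesis, was at 32.6, 32.2 and 27.5 FPKM in sh-NC and 14.7, 11.1 and 9.54 FPKM in sh-CLGN (-1.33, SE 0.140, limma adjusted p = 9.90e-05). NR1H4 (FXR), the bile acid receptor itself, fell from 21.7 ± 1.13 to 15.1 ± 0.577 FPKM (-0.50, limma adjusted p = 0.000145).

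The log2 change was -0.72 for GATA4 and -0.24 for GATA6, the GATA factors that act with FOXA proteins in endoderm. It was -0.65 for NR2F2, an orphan receptor that can compete for HNF4 sites, and -0.47 for TBX3, which keeps hepatoblasts dividing. GATA6 lost its call when scaled by read totals (-0.06, adjusted p = 0.290) and after GC correction (-0.02, adjusted p = 0.649). CREB3L3, a membrane-bound activator of lipid genes in the liver, fell by 0.72 on the log2 scale, and PPARA, the receptor for fatty acids, by 0.39. ATF5, a stress-responsive factor of the ATF family, rose by 0.29 (limma adjusted p = 0.0263). RXRA at -0.14, HHEX at 0.10 and NR5A2 at 0.02 did not pass as deposited. Under GC correction RXRA (0.12, adjusted p = 0.0120) and HHEX (0.18, adjusted p = 0.0316) were called higher, as was HHEX when scaled by read totals (0.29, adjusted p = 0.00535).

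Whether genes downstream of the factors were lower was examined on a list of 40 hepatocyte genes for which control by at least 1 of the factors is textbook knowledge. Of the 30 that passed the filter, 13 (43.3%) were lower, 13 (43.3%) were higher and 4 did not pass, with a median log2 change of 0.07. Of all tested genes 39.0% were lower and 26.7% higher. Among the higher targets, SHBG (0.566 to 2.13 FPKM) and CPS1 (0.605 to 1.155 FPKM) were below 1 FPKM in every sh-NC library. They passed the filter through sh-CLGN alone and could not have been called lower. All targets called lower reached 1 FPKM in every library, so the even split and the median are partly set by the filter. Scaled by read totals, 8 targets were lower and 15 higher, beside 26.2% and 37.9% of all tested genes. With quantile normalization, 7 were lower and 15 higher, beside 32.5% and 30.2%. The 10 that failed the filter included CYP7A1 and F9, which had 0 reads in every library.

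Among the lower targets, TF, FGA, ALB, AMBP and HP had the smallest adjusted p-values. TF, the iron carrier transferrin, was at 183, 183 and 177 FPKM in sh-NC and 58.5, 58.8 and 57.9 FPKM in sh-CLGN (log2 change -1.62, SE 0.041, limma adjusted p = 4.15e-07). ALB, the main plasma protein, was at 1934, 2011 and 2076 FPKM in sh-NC and 1108, 1056 and 1065 FPKM in sh-CLGN (-0.90, SE 0.055, limma adjusted p = 7.88e-06). AMBP, the precursor of alpha-1-microglobulin and bikunin, fell by 0.85, FGA, the fibrinogen alpha chain, by 0.83, and HP, the hemoglobin scavenger haptoglobin, by 1.22 on the log2 scale.

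MTTP, APOA4, FGB and AHSG were among the higher targets with the smallest adjusted p-values. MTTP, which loads lipid onto APOB, was at 31.8, 33.5 and 38.6 FPKM in sh-NC and 84.3, 86.7 and 86.9 FPKM in sh-CLGN (log2 change 1.29, SE 0.071, limma adjusted p = 5.43e-06). APOA4 rose by 0.91 and AHSG, the plasma protein fetuin-A, by 0.46. FGB, the fibrinogen beta chain, rose by 0.72 (limma adjusted p = 2.98e-05), and FGG, the gamma chain, by 0.34, opposite to FGA. AFP, the fetal counterpart of albumin, rose by 0.50 (limma adjusted p = 0.000230).

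**Figure D4:**
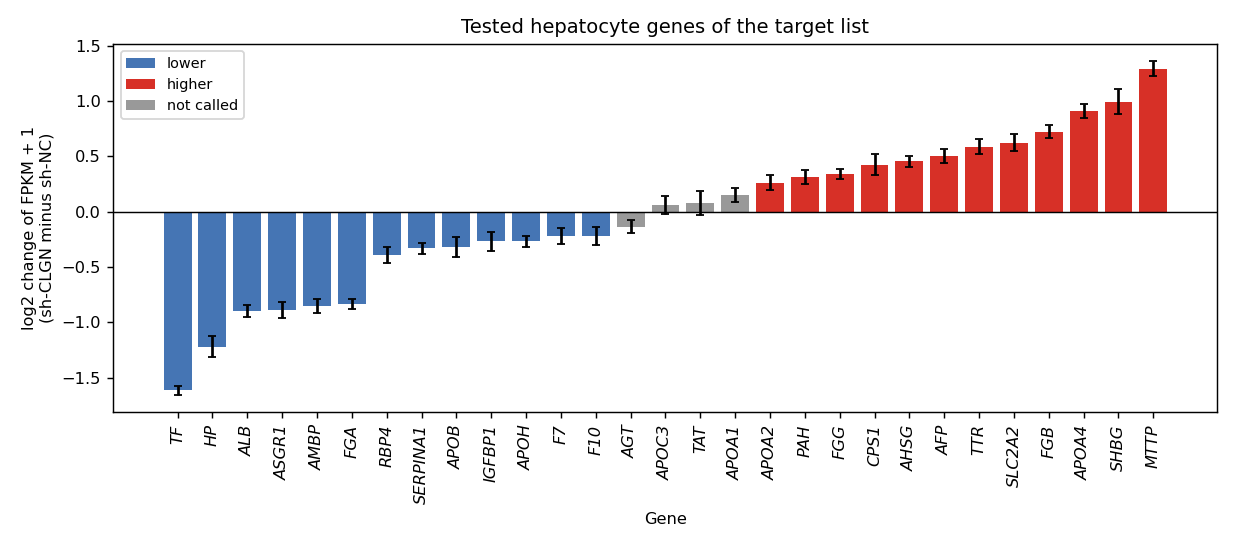
Log2 change of FPKM + 1, sh-CLGN minus sh-NC (vertical axis, bars with SE), for 29 of the 30 tested hepatocyte genes of the target list in rising order. Blue genes were called lower (13), red genes higher (12) and grey genes were not called (4), and the genes drawn run from -1.62 for TF to 1.29 for MTTP.

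The ALB promoter is printed as the textbook example of a promoter built from sites of these factors. Its RefSeq window is chr4:73404037-73404336 on the plus strand of GRCh38.p14, and capitals mark TTGCNNAA, the letters of a C/EBP site, on either strand.
ALB: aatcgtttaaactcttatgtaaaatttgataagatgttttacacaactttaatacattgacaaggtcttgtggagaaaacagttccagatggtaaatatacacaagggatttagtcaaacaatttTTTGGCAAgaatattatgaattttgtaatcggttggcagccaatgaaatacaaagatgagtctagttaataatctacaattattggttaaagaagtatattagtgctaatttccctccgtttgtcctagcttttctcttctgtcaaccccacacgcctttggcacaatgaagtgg
It held 1 C/EBP match on the minus strand, at -125 bases from the start. CEBPA and ALB were both lower in sh-CLGN. Of the 34 windows found for 24 target genes, 10 held the C/EBP letters, where 10.5% of all windows did. They belong to 9 genes, of which ALB, FGA, TF and RBP4 were lower, AFP, FGB, AHSG and SHBG were higher, and SLC10A1 was not tested. CAAAGT, a part of the HNF4 site, was found in 8 of those 34 windows and, among the 5 lineage factors with a window, in FOXA1 at -230, against 11.9% of all windows. TGTTTAC, the FOXA core, was found in 1 of them, that of APOA2, and in 0 of those 5 factors, against 3.42% of all windows.

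Genes that overlap a factor had fewer reads than the factor. Such counts do not measure how many of a factor's reads came from the neighbour. PROX1-AS1, on the other strand at PROX1, had 106 to 141 reads beside at least 2488 for PROX1. The antisense genes AC011700.1 and AL606537.1 had at most 25 and 14 reads there. MIR3646, within HNF4A on the same strand, had 9 to 18 reads. TTC6, which overlaps FOXA1 on the other strand, had 86 to 185 reads per library beside at least 1094 for FOXA1. HNF4A-AS1, antisense to HNF4A, had 15 to 36 reads beside at least 6135, and was called higher (log2 change 0.37, limma adjusted p = 0.0260). The strand setting of the counting is not given in the sources used here, so reads of antisense partners cannot be told apart. AL121722.1, which overlaps FOXA2 on the same strand, had 0 reads in every library, and reads fitting both genes may have been left out, so the level of FOXA2 is uncertain in that respect. AC008738.3 and AC008738.5, on the other strand within CEBPA, also had 0 reads in every library. If the counting ignored the strand, the level of CEBPA is uncertain in the same way.

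The letters that the hairpin's guide strand would pair with were also searched in the annotated 3' untranslated ends of the messages. The 7-base sites for guide positions 2 to 8 (TACCACA) and 3 to 9 (ATACCAC), counted from 1 at the guide's 5' end, occurred in 0 of the 8 factors, against 13.1% and 9.69% of 10909 tested genes with an annotated 3' end. The site for positions 1 to 7 (ACCACAA) occurred in HNF4A and ONECUT1, against 14.3% of those genes. The part of the guide strand in these changes was not tested.

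No factor passed both thresholds with the values as deposited, and FOXA2, with the largest change, was taken to look for like patterns. Over the 6 libraries, with each gene taken relative to its own control mean on the log2(FPKM + 1) scale, the nearest protein-coding genes were DHRS11 (root mean square difference 0.0240), PLOD3 (0.0277) and SUN2 (0.0284). PLOD3 was at 44.9 FPKM in sh-NC and 22.7 FPKM in sh-CLGN, close to FOXA2 in level too.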

How the data were processed

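The 8 genes and all lists were chosen with earlier results of these data known. Libraries were prepared with a NEBNext Ultra kit per the labels. The submitters' processing notes name HISAT2 2.0.5, featureCounts and GRCh38. The authors deposited FPKM per gene and library, and all 58735 gene positions equalled those of GENCODE 29. FPKM times gene length fell on whole reads for 100% of values (tolerance 0.01 of a read). Relative to the read totals, the sizes by which libraries had been divided were 0.933 to 0.953 for sh-NC libraries and 1.07 to 1.08 for sh-CLGN libraries, which lowers sh-CLGN values relative to scaling by reads.

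Genes that reached 1 FPKM in 3 or more libraries were tested with limma 3.58.1 in R 4.3.3 (eBayes, intensity trend) on log2(FPKM + 1), a scale that understates changes of low genes. Two-sided p-values were adjusted by Benjamini-Hochberg over 13074 genes, and calls were made at 0.05. Nothing in the labels names separate cultures, so p-values measure the spread between these libraries, which may be technical. GC content came from the longest GENCODE 29 transcript, and its trend was removed per library by lowess (span 0.3). Promoter windows came from RefSeq (GRCh38.p14), matched by symbol for 5 of the 8 factors. A level of at most 3 reads was taken as the floor and covers counting error only.

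Named were the 8 factors, tested partners, the 5 targets with the smallest adjusted p in each direction, CLGN and the 3 genes nearest in pattern to FOXA2. Some genes that the rule takes in are counted but not reported here by name. Other genes, among them AFP, and the ONECUT ratio were named after their values were seen. The procedure was tested on simulated data. Exact tests were run in scipy 1.17.1 and figures drawn in matplotlib 3.10.9, under Python 3.11.15. The replicate number, pseudocounts, filters, scalings, voom on recovered reads and leaving out each library were tried as alternatives.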

Additional observations from a re-analysis of the deposited data

How the results depend on the processing

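FOXA2, CEBPA, FOXA3, FOXA1 and HNF4G remained lower past the threshold under all 11 alternatives and when each of the 6 libraries was left out. Over the 11, FOXA2 stayed at or below -0.70 and CEBPA at or below -0.48 on the log2 scale. FOXA2 also reached an absolute log2 change of 1 with voom (-1.001), without sh-NC replicate 3 (-1.03) and without sh-CLGN replicate 3 (-1.02). HNF4A lost its call with quantile normalization (-0.013) and with scaling by read totals (-0.10). ONECUT1 gained one with a pseudocount of 0.1 (-0.22) and with voom (-0.22), and turned to 0.052 after GC correction. PROX1 became higher with quantile normalization (0.27) and read totals (0.21), and was -0.074 after GC correction. Leaving out a library gave -0.25 to -0.16 for ONECUT1 and -0.036 to 0.083 for PROX1. The cause was not tested.

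Of the lineage factors, 5 to 7 were lower over the alternatives and 6 to 7 with a library left out. The number higher was 1 with quantile normalization and with read totals, and 0 otherwise. Under read totals 26.2% of all tested genes were lower. The number of partner factors higher was 1 with no filter, with a mean of at least 0.1 FPKM and with the replicate block, 4 after GC correction, and 1 to 2 with a library left out. Of the targets, 7 were lower with quantile normalization and 8 with read totals. Counted in reads, which weights genes by length, the difference in the FOXA1 share was 6.09 in place of 4.77 percentage points, and that in the ratio of ONECUT2 to ONECUT1 was 2.73 in place of 0.65. That last ratio and its alternatives were chosen after seeing the data.

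Replicate numbers gave no pairing of libraries, as the deviations of same-numbered libraries correlated at -0.02, -0.05 and -0.15. A replicate block gave 6 lineage factors lower and 0 higher. At 251 to 382 reads per library, HNF4G had the least depth of the 8.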

Other observations

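The other genes that the deposited table places in the families of the lineage factors were looked at after the values were seen. Of 20 tested forkhead genes, FOXA1 to FOXA3 among them, 12 were lower and 4 higher, beside 40.3% and 28.7% of all tested factor genes. FOXQ1 fell by 1.31 on the log2 scale (limma adjusted p = 2.07e-06), more than any FOXA gene, and FOXM1, which drives entry into mitosis, fell by 0.67. FOXO4 rose by 0.82 (limma adjusted p = 0.000166) and FOXP2 by 0.53. Both were below 1 FPKM in every sh-NC library. FOXO4 and FOXP2 thus passed the filter through sh-CLGN alone and could not have been called lower. The count of 4 higher forkhead genes is therefore partly set by the filter.

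Of 9 tested genes in the family of HNF4A, HNF4G and the retinoid X and COUP receptors, 4 were lower and 3 higher. That is near the 40.3% lower and 28.7% higher among all tested factor genes. The COUP factors moved apart. NR2F6 fell by 0.82 and NR2F2 by 0.65, while NR2F1 rose by 0.62 (limma adjusted p = 0.000276). Among tested cut-domain genes, CUX1 was lower (-0.29) and ONECUT2 and SATB1 were higher (0.60 and 0.59).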
